A study of Mus musculus with 2 samples.

Results

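The aminoacyl-tRNA synthetase genes code for the enzymes that join each amino acid to its tRNA. They were taken from the protein-coding genes of the mouse build GRCm38 (mm10) by their symbols, which are an amino acid letter followed by "ars", with or without a final number, together with Eprs, Farsa and Farsb. This gave 37 genes of 20576 protein-coding genes with a known strand. A final 2 in the symbol marks the 17 enzymes of the mitochondrion, and the other 20 genes were counted as cytosolic. Gars and Kars serve both compartments and were counted as cytosolic. The samples are 2 biological replicates of 1 group, MEL cells kept in 2% DMSO for 5 days, in which the histone mark H3K4me3 was mapped by chromatin immunoprecipitation and sequencing. MEL is an immortalized mouse erythroleukaemia line, described in the labels as a leukaemia line comparable to human K562, and DMSO is a textbook inducer of its maturation along the red cell path. Untreated MEL cells were not analysed here, so a change with DMSO was not tested, and with 1 group no test between conditions was possible.

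Each synthetase recognises 1 amino acid and the tRNAs that carry it, and the charged tRNA is then used by the ribosome. Cytosolic and mitochondrial protein synthesis need separate sets of charged tRNAs, and all of the mitochondrial enzymes are coded in the nucleus. The enzymes fall into class I and class II by the fold of their catalytic domain. In animals a group of the cytosolic enzymes is held in the multisynthetase complex. When amino acids run short, uncharged tRNA activates the kinase GCN2 (Eif2ak4), which leads to translation of the transcription factor ATF4, and ATF4 is known to bind composite elements at genes for amino acid supply and tRNA charging. H3K4me3 is found around the start sites of active genes and of many genes with CpG-rich promoters.

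The promoters were searched for a fixed set of motifs and the matches are given first to show the sequence around the starts. For 6 genes the promoter's start lies more than 500 bp from the end at which the mark was measured, as given below. Promoter sequences from 250 bases before to 50 bases after the start were available from RefSeq (GRCm38.p6) for 27 of the 37 genes, 13 cytosolic and 14 mitochondrial. The core of the ATF4 composite element, TGATGNAA on either strand, was found in 5 of the 13 cytosolic promoters and in 0 of the 14 mitochondrial ones. Of all 16485 promoters in the table, 3.43% held it. The 5 genes were Aars, Gars, Iars, Tars and Yars, the enzymes for alanine, glycine, isoleucine, threonine and tyrosine. The following lines give the matches of 4 of them, 5′ to 3′ along the gene's strand, with the match in capitals.
Iars, chr13:49682127-49682154, + strand: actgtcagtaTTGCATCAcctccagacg
Yars, chr4:129189896-129189923, + strand: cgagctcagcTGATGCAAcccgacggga
Tars, chr15:11399656-11399683, - strand: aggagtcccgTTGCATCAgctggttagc
Gars, chr6:55037961-55037988, + strand: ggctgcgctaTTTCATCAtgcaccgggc
In Iars, Yars and Tars the first base of the match lay at 8, 4 and -15 relative to the start. It lay at -30 in Gars. The letters alone say nothing about binding of ATF4, which was not measured.

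The NRF1 core GCATGCGC, a motif known from many nuclear genes for mitochondrial proteins, was found in 3 of the 14 mitochondrial promoters, Rars2, Vars2 and Wars2, and in 0 of the 13 cytosolic ones, against 3.74% of all promoters. With so few promoters in each compartment, a count of 0 for either motif cannot show whether the compartments differ, and a difference was not tested. The matches are again in capitals. Vars2 had a pair of matches, starting at -46 and -20 relative to the start.
Rars2, chr4:34614896-34614923, + strand: ggccccgtgtGCATGCGCactccacact
Vars2, first match, chr17:35667621-35667648, - strand: agtcttttacGCATGCGCctgcgtgtcc
Vars2, second match, chr17:35667595-35667622, - strand: ccccgcccacGCATGCGCgcgcacctcg
Wars2, chr3:99141016-99141043, + strand: cagaggacagGCGCATGCgtagtaagca
The ETS core CCGGAAGT was found in Farsa, Mars1 and Rars2, 3 of the 27 promoters, against 5.50% of all promoters. In Mars1 and Farsa its match began at -30 and -23, and in Rars2 it began at -5, so that Rars2 held both an NRF1 and an ETS match.
Rars2, chr4:34614942-34614969, + strand: agcagaggcgACTTCCGGcgcggaggcg
Mars1, chr10:127311799-127311826, - strand: cgcaccgtcaACTTCCGGgtctcgttgg
Farsa, chr8:84856953-84856980, + strand: cgctatcgcgACTTCCGGttccagttcc

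The YY1 motif AAGATGGC was found in Aars2, Farsa, Wars2 and Yars2, 4 of the 27 promoters, against 3.29% of all promoters. In the 3 mitochondrial genes of this group the match began at 20, 7 and 17 in Aars2, Wars2 and Yars2, just downstream of the start, and in Farsa it began at -94.
Aars2, chr17:45506841-45506868, + strand: gcccggagctAAGATGGCggtggcgttg
Wars2, chr3:99141086-99141113, + strand: cgcccttctcAAGATGGCgctgttctct
Yars2, chr16:16302971-16302998, + strand: cgtgtcccgcAAGATGGCggcgcccatg
Farsa, chr8:84856882-84856909, + strand: tgccacacttAAGATGGCgacgaccagc
The NF-Y motif ATTGGC was found in 5 of 27 promoters (Aars, Mars2, Sars2, Tars and Yars) against 17.6% of all promoters, and the TATA box TATAAA in 3 (Aars2, Farsa and Tars2) against 13.1%. The TATA matches began far upstream of the start, at -212, -239 and -202 in Aars2, Farsa and Tars2. Both strands were searched for every motif, and 0 matches of different motifs overlapped.

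**Figure D1:**
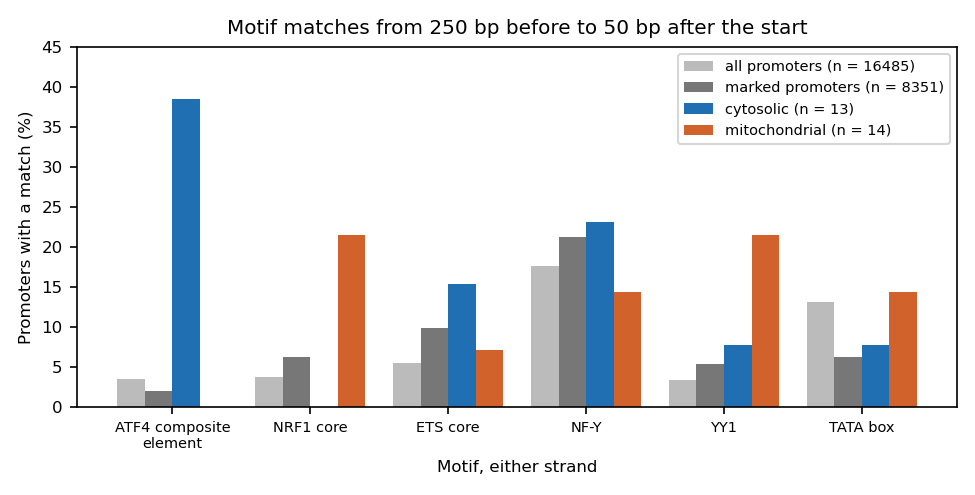
Share of promoters (%, vertical axis) with at least 1 match to each of the 6 motifs (horizontal axis), for all promoters in the RefSeq table, marked promoters, cytosolic synthetase genes and mitochondrial synthetase genes. The ATF4 composite element was found in 5 of 13 cytosolic and 0 of 14 mitochondrial promoters, and the NRF1 core in 0 and 3. The counts are small, and no test was made.

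Among marked promoters, the genes with H3K4me3 as defined next, the ATF4 composite core was found in 2.00%, the NRF1 core in 6.21%, the ETS core in 9.87%, the YY1 motif in 5.33%, the NF-Y motif in 21.3% and the TATA box in 6.25%. The 27 synthetase promoters had a median CpG observed-to-expected ratio of 0.739, which compares the CpG pairs present with those the base composition would give. All promoters in the table had a median of 0.603, marked ones 0.796 and unmarked ones 0.257. The ratio was above 0.6 in 22 of the 27 (81.5%), against 79.2% of marked promoters and 50.3% of all promoters. The synthetase promoters therefore lay close to marked promoters on this measure. Their median GC content was 57.7%, against 61.3% for marked promoters.

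All 37 synthetase genes carried H3K4me3 at the 5′ end in both replicates. A gene was called marked when the region within 1000 bp of the 5′ end of its gene span overlapped a peak in replicate 1 and a peak in replicate 2, a peak being a stretch of genome where the authors called enrichment. By this rule 48.4% of all protein-coding genes were marked. The genes lay on 15 chromosomes, and each was also reached by a peak in the pooled set, the set of replicated peaks and the older set on mm9. The peak sets hold no read counts, so depth is unknown, and replicates 1 and 2 had 48026 and 46950 peaks. Cells were measured in bulk, so a mark on fewer cells and a weaker mark on every cell cannot be told apart.

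The strength of the mark at the synthetase genes was close to that of marked genes at large. Each gene was given the highest enrichment value, the authors' signal value per peak on a scale they do not state, among the peaks in its window. The mean of the replicates ran from 3.61 to 21.8 over the 37 genes with a median of 13.7, and the median of all 9968 marked genes was 13.2 (lower and upper quartiles 10.8 and 15.7). Of the 37 genes, 20 lay above that median, 12 of 20 cytosolic and 8 of 17 mitochondrial. The cytosolic genes had a median of 13.7 (9.55 to 21.8) and the mitochondrial genes 12.2 (3.61 to 21.2). In replicate 1 the medians were 12.9 and 11.8, and in replicate 2 they were 13.9 and 13.5. The difference between the compartments, 1.42, was 1.08 in replicate 1 alone and 0.365 in replicate 2 alone.

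**Figure D2:**
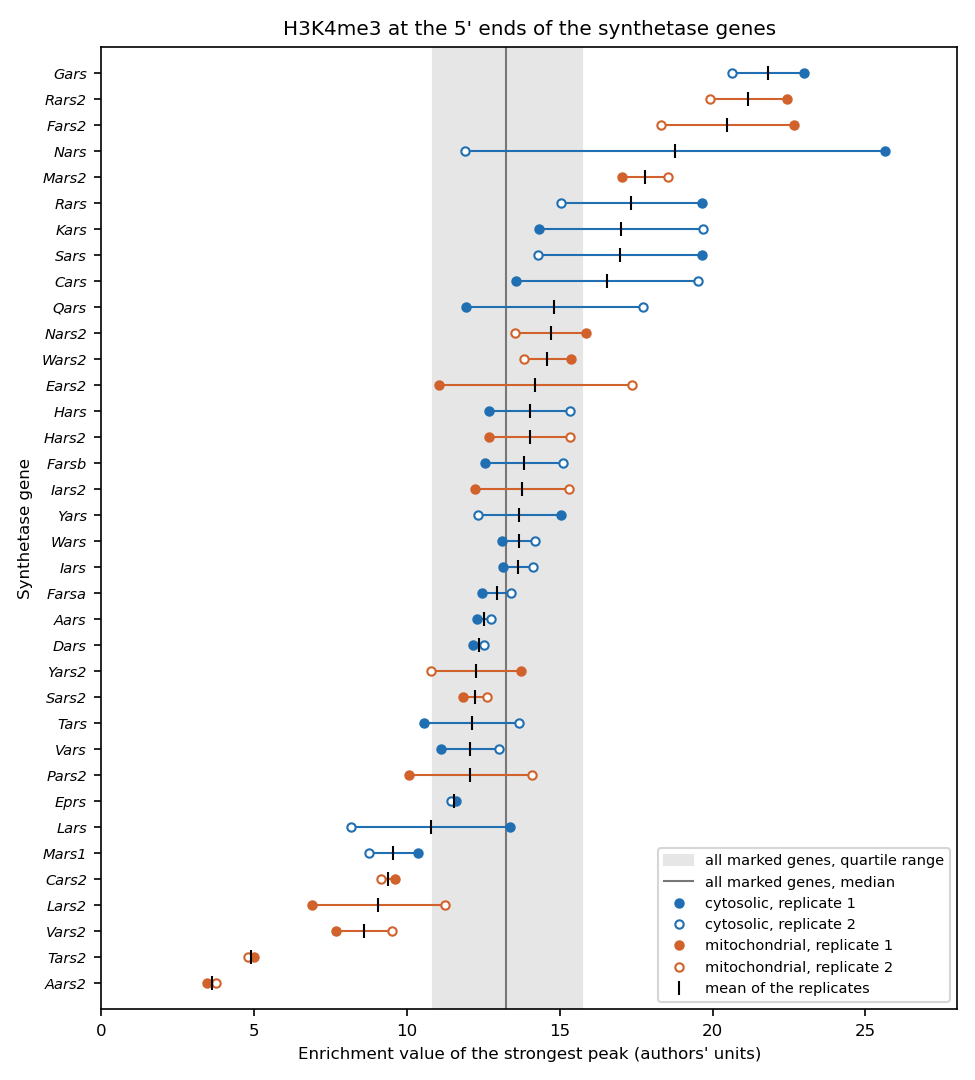
Enrichment value of the strongest peak near the 5′ end (horizontal axis, authors' units) for 36 of the 37 genes (vertical axis, ordered by mean), with filled points for replicate 1, open points for replicate 2 and a tick for the mean. The grey band and line give the quartile range and the median of all marked genes, 10.8 to 15.7 and 13.2. Most genes of both compartments lie in or near the band, with Gars, Rars2, Fars2 and Mars2 above it and Mars1, Cars2, Vars2, Tars2 and Aars2 below it in both replicates.

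The 8 genes of the multisynthetase complex spanned much of this range, with a median of 13.0 (9.55 to 17.3) against 13.7 for the 12 other cytosolic genes. Rars, for arginine, was the highest of them, with 19.6 and 15.05 in replicates 1 and 2 (17.3 ± 3.25, mean ± SD, n = 2, as for all means below). Kars, for lysine, had 14.3 and 19.7 (17.0 ± 3.81). The replicates thus ordered Rars and Kars in opposite ways. Qars, the glutamine enzyme and the only synthetase for glutamine in the set, had 11.9 and 17.7 (14.8 ± 4.10). Iars, for isoleucine, had 13.2 and 14.1. Dars, for aspartate, had 12.2 and 12.5 and Eprs, which joins the glutamate and proline enzymes in 1 chain, 11.6 and 11.4, the closest replicates of the complex. Lars, for leucine, had 13.4 and 8.18 (10.8 ± 3.68). Mars1, for methionine, was the lowest of the complex with 10.4 and 8.74 (9.55 ± 1.14), below the lower quartile of marked genes in both replicates.

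Gars, the glycine enzyme, which serves both the cytosol and mitochondria, had the highest mean of all 37 genes. Its values were 23.0 and 20.6 (21.8 ± 1.67), above the upper quartile of marked genes in both replicates. Its ATF4 composite match lies in the 100 bases upstream of the start (chr6:55037901-55038000, + strand), shown because it belongs to the gene with the strongest mark.
Gars: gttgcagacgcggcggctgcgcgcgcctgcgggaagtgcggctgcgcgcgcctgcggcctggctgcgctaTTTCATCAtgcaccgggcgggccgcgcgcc
The other 4 genes with this motif did not stand out by their mark. Yars, for tyrosine, had 15.04 and 12.3, and Tars, for threonine, 10.6 and 13.7. Iars had 13.2 and 14.1, as above. Aars, for alanine, had 12.3 and 12.8 at the end of its gene span. The Aars promoter that was searched for the motif starts 6064 bp inside the span, where the values were 14.0 and 14.2.

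Nars, the asparagine enzyme, had the largest gap between replicates of the 37 genes, with 25.6 in replicate 1 and 11.9 in replicate 2 (18.8 ± 9.72, a log2 ratio of 1.11). Its place near the top rests on replicate 1. The values come from different peaks, at -14 to 1292 bp from the 5′ end in replicate 1 and -1018 to -161 bp in replicate 2. In replicate 2 the peak over the 5′ end had 11.4. The strongest peak of Yars also changed side between replicates, so the SD and ratio are not always the spread of a single peak. It was the only synthetase gene whose replicates differed more than 2-fold (2.70%, against 4.46% of marked genes). Lars, Lars2 and Ears2 differed more than 1.5-fold, so that 4 of 37 passed that limit (10.8%, against 22.4%). Replicate 2 was the higher one for 22 genes and replicate 1 for 15. Over the 37 genes the log2 ratio of the replicates, 1 over 2, had its median at -0.10 with a spread (SD) of 0.38, against -0.16 and 0.47 over all marked genes.

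Among the remaining cytosolic genes, Sars for serine had 19.7 and 14.3 (17.0 ± 3.80) and Cars for cysteine 13.6 and 19.5 (16.5 ± 4.21). Both had 1 replicate above the upper quartile of marked genes and 1 below it. Farsa and Farsb code for the catalytic and the partner subunit of the cytosolic phenylalanine enzyme, which is built from both. Farsa had 12.5 and 13.4, and Farsb had 12.5 and 15.1, so the subunits' ranges overlapped. Wars for tryptophan had 13.1 and 14.2, Hars for histidine 12.7 and 15.3, and Vars for valine 11.1 and 13.0. All values of these 5 genes lay between the quartiles of marked genes.

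The mitochondrial enzymes held the 2 highest means after Gars and the 2 lowest of all. Rars2, for arginine, had 22.4 and 19.9 (21.2 ± 1.77). Fars2, for phenylalanine, had 22.7 and 18.3 (20.5 ± 3.08), and Mars2, for methionine, 17.0 and 18.5 (17.8 ± 1.07). These 3 genes were above the upper quartile of marked genes in both replicates. Nars2 for asparagine had 15.9 and 13.5, and Wars2 for tryptophan 15.4 and 13.8. Ears2, which charges glutamate and, in mitochondria, also the glutamine tRNA, had 11.0 and 17.4 (14.2 ± 4.48). Hars2 had the same values as Hars, since both genes share 1 strongest peak. Iars2 for isoleucine had 12.2 and 15.3, Yars2 for tyrosine 13.7 and 10.8, and Pars2 for proline 10.05 and 14.1. Sars2 for serine had 11.8 and 12.6, close to the mitochondrial median.

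Lower values were found for Cars2, for cysteine, with 9.59 and 9.14, and for Vars2, for valine, with 7.67 and 9.49. Lars2, for leucine, had 6.88 and 11.2 (9.05 ± 3.08). Cars2 and Vars2 were below the lower quartile of marked genes in both replicates, and Lars2 in replicate 1 only. Tars2, for threonine, had 4.98 and 4.79 (4.88 ± 0.136), and Aars2, for alanine, 3.46 and 3.76 (3.61 ± 0.216). Both of these lay far below the rest with little spread between replicates, and both depend on which start is used, as follows.

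The gene span gives a single 5′ end, which need not be the start that is used. Of the 27 genes in RefSeq's list of promoters, 6 had a start more than 500 bp inside the span, while 18 had one within 20 bp of its end. The 6 were Aars (6064 bp), Aars2 (3317 bp), Eprs (1627 bp), Tars2 (1388 bp), Wars2 (983 bp) and Nars2 (688 bp). At the table's start Aars2 had 11.0 and 14.5 (12.7 ± 2.42) in place of 3.46 and 3.76, from peaks at chr17:45506851-45507512 in replicate 1 and chr17:45506836-45507537 in replicate 2. Tars2 had 11.2 and 8.94 (10.1 ± 1.62) in place of 4.98 and 4.79. The low values of both genes therefore belonged to the outer end of the span, and at the inner start both had values in the range of the other genes.

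At the table's start Eprs had 12.4 and 14.6 and Aars 14.0 and 14.2, while Wars2 and Nars2 kept their values. The outer end of Aars lies inside Ddx19b, a gene on the opposite strand (chr8:111003186-111031751). With the table's starts, used as an alternative chosen after the data were seen, 27 of 27 genes were marked, against 50.7% of all 16485 genes in the table. For values over all 37 genes or over pairs, genes without an entry in the table kept the end of their gene span, here and below. The lowest synthetase gene was then Vars2 (8.58), and the median of the 37 genes stayed at 13.7. The cytosolic and mitochondrial medians were 13.7 and 12.7, a difference of 1.00.

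**Figure D3:**
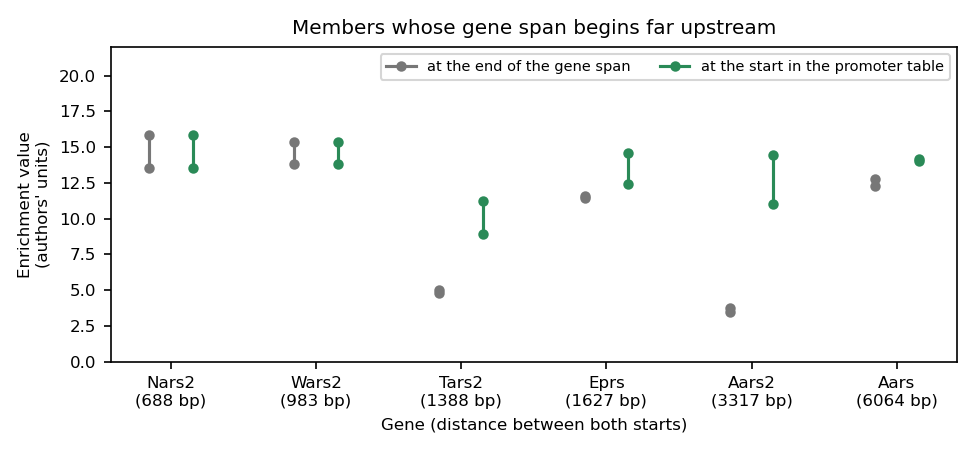
Enrichment value (vertical axis, authors' units) of the 6 genes whose start in the RefSeq promoter table lies more than 500 bp inside the gene span, at the end of the span (grey) and at the table's start (green). Points joined by a line are replicates 1 and 2. Aars2 and Tars2 move from below 5 to between 8.94 and 14.5, and Nars2 and Wars2 do not move.

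Cytosolic and mitochondrial enzymes for the same amino acid were set side by side in 18 pairs, in which Eprs stands against both Ears2 and Pars2, and Fars2 against both Farsa and Farsb. The 2 replicate values of the cytosolic gene lay wholly above those of the mitochondrial gene in 5 pairs, for alanine, cysteine, serine, threonine and valine. They lay wholly below in 4 pairs, Fars2 against both of its partners, Mars2 against Mars1 and Rars2 against Rars. In 9 pairs the ranges overlapped. With the promoter table's starts, or the span's end for genes not in the table, the counts were 3, 4 and 11, since alanine and threonine joined the overlapping pairs. The methionine pair differed most in favour of the mitochondrial enzyme, with 17.8 ± 1.07 for Mars2 and 9.55 ± 1.14 for Mars1. The cysteine pair was the most unequal in the other direction once the table's starts were used, with 16.5 ± 4.21 for Cars and 9.37 ± 0.324 for Cars2. Neither compartment was thus the higher one throughout. Class I and class II enzymes, with 18 genes each beside Eprs, had medians of 13.7 and 13.4.

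**Figure D4:**
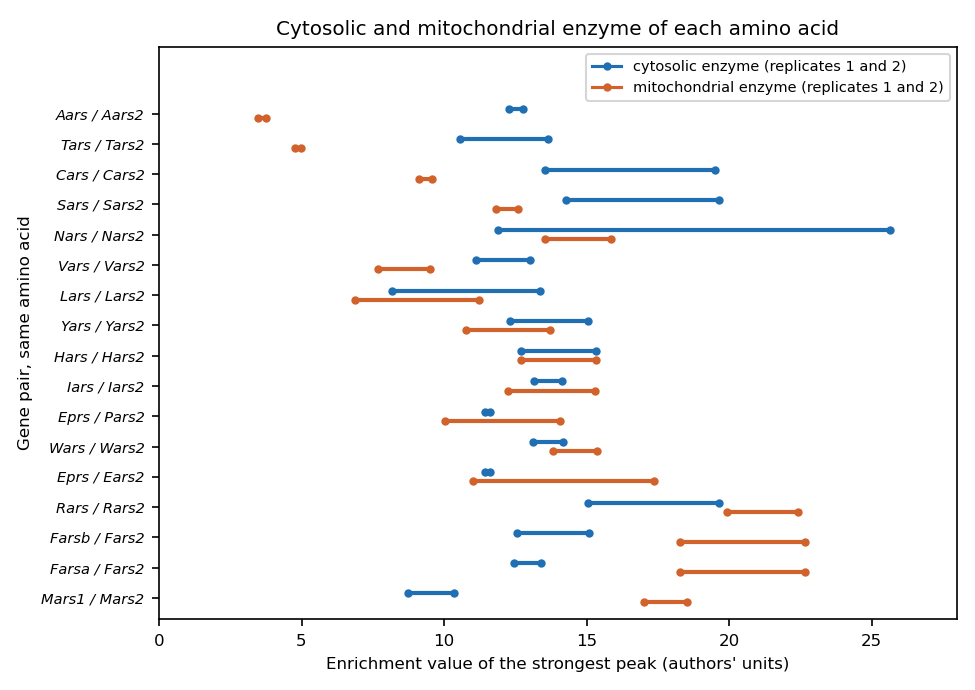
Enrichment values (horizontal axis, authors' units) of the cytosolic (blue) and mitochondrial (orange) enzyme of 17 of the 18 pairs (vertical axis), at the ends of the gene spans. Each line joins replicates 1 and 2, and the pairs are ordered by the difference of their means. The lines overlap in 8 of the 17 pairs drawn, with the cytosolic gene above in 5 and the mitochondrial gene above in 4.

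Marked chromatin around the synthetase genes was close in width to that at other marked genes. A domain was taken as the widest chain of neighbouring peaks less than or exactly 1000 bp apart that reached the window. The 37 genes had a median domain width of 2304 bp (520 to 6972 bp), against 2258 bp for all marked genes. The cytosolic median was 2349 bp and the mitochondrial 1972 bp. The order of the compartments turned when gaps of up to 3000 bp were joined (a difference of -312 bp in place of 377 bp). Vars had the widest domain, 6972 ± 280 bp, which also holds the 5′ end of its neighbour D17H6S56E-5. Mars2 came next with 4442 ± 197 bp, and its domain holds no other protein-coding 5′ end. Aars2 had the narrowest, 520 bp, at the outer end of its span.

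Over the genes as a set, the mark lay on both sides of the start, with a dip over it. This did not hold for every gene. Aars2, Eprs, Farsa, Tars2 and Wars2 had no base under a peak within 1000 bp upstream of the span's end. The 5′ end itself was inside a peak in both replicates for 15 of 37 genes (8 cytosolic, 7 mitochondrial), against 20.5% of all genes and 42.4% of marked genes. As a share of the 37 this is 40.5%. At 25 bp upstream, 25% of cytosolic, 41.2% of mitochondrial and 38.7% of all marked genes were under a peak in both replicates. At 500 bp downstream the shares were 95.0%, 94.1% and 85.5%. More bases were covered downstream than upstream in 30 of 37 genes (81.1%, against 77.9% of marked genes), with medians of 969 bp downstream and 750 bp upstream. The summit of the strongest peak was downstream of the 5′ end in both replicates for 23 genes (62.2%, against 60.2%) and upstream for 8 (21.6%, against 17.6%).

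**Figure D5:**
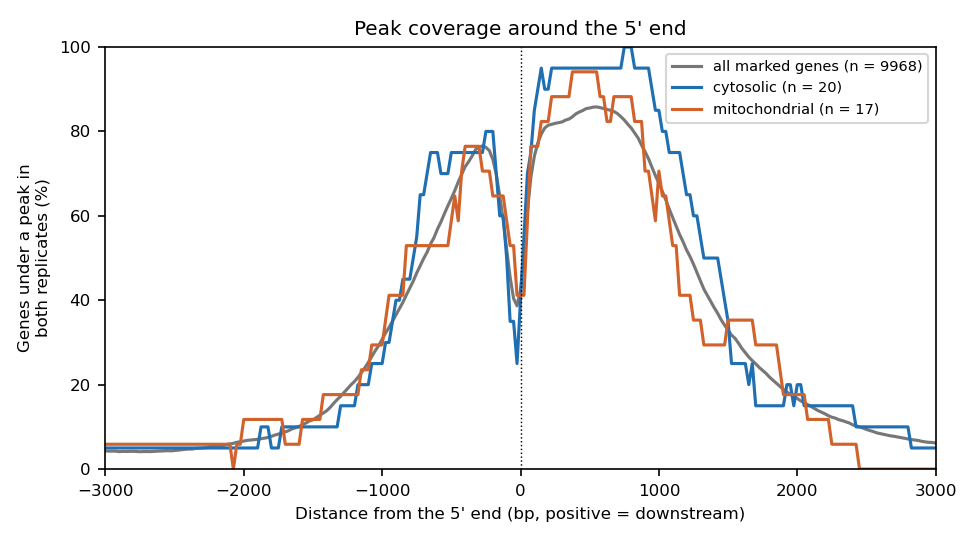
Share of genes (%, vertical axis) under a peak in both replicates at each distance from the 5′ end (bp, horizontal axis, positive values downstream) for cytosolic, mitochondrial and all marked genes. All 3 lines dip at the 5′ end, to 25%, 41.2% and 38.7% at 25 bp upstream, and stand at 95.0%, 94.1% and 85.5% at 500 bp downstream.

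At the promoter table's start the same dip could be measured as a gap between peaks. Peaks stood on both sides of an uncovered start in both replicates for 7 of 27 genes (25.9%, against 24.9% of marked genes in the table), namely Dars, Eprs, Mars2, Sars, Sars2, Tars2 and Vars2. Their gaps ran from 44 to 212 bp, with medians of 154 bp in replicate 1 and 133 bp in replicate 2, against 223 and 171 bp for all such genes. Vars2, whose upstream stretch holds the pair of NRF1 matches (chr17:35667593-35667692, - strand, shown for that pair), had gaps of 54 and 44 bp.
Vars2: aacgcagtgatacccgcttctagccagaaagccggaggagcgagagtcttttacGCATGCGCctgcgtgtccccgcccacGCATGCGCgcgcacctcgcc
A further 11 starts were covered in both replicates (40.7%, against 45.2%), and the replicates differed at 9.

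Many synthetase genes shared their promoter region with a gene on the opposite strand. A protein-coding 5′ end on the other strand lay within 1000 bp for 12 of 37 genes (32.4%), 5 of 20 cytosolic and 7 of 17 mitochondrial, against 20.2% of marked genes and 10.8% of all genes. The closest were Ears2 and Ubfd1 (1 bp), Hars and Hars2 (3 bp), Kars and Terf2ip (5 bp), Rars2 and Orc3 (6 bp) and Iars2 and Bpnt1 (9 bp). Terf2ip codes for the telomere protein RAP1, and Orc3 for a subunit of the origin recognition complex. Wars and Wdr25 followed at 23 bp, Yars and S100pbp at 69 bp and Fars2 and Lyrm4 at 71 bp. Lyrm4 acts in the making of iron-sulfur clusters in mitochondria. Vars and D17H6S56E-5 lay 133 bp apart, and Sars2 and Mrps12, a protein of the mitochondrial ribosome, 136 bp apart. With the promoter table's starts 11 of 37 genes had a partner (29.7%, against 9.66% of all genes), since the starts of Iars2 and Bpnt1 were then 2758 bp apart. Genes not in the table kept the end of their gene span for this.

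Each of the 12 genes had its strongest peak in common with its partner. This follows largely from the rule, since the windows of genes so close together overlap almost wholly. The value there cannot be assigned to one gene. Rars2 and Orc3, for example, shared the values 22.4 and 19.9, and Fars2 and Lyrm4 shared 22.7 and 18.3, so the 2 highest means after Gars belong to shared promoters. Synthetase genes with a partner had a median value of 13.9 and a median domain of 2774 bp, and those without 12.5 and 2001 bp. All marked genes showed the same order, with 13.9 and 2602 bp with a partner and 13.1 and 2151 bp without. The strongest summit was downstream in both replicates for 5 of the 12 genes with a partner and 18 of the 25 without, against 37.0% and 66.0% of marked genes. Without the 12 genes the difference between the compartments' median values was 2.93 in place of 1.42, both taken at the ends of the gene spans. The mitochondrial genes left include Aars2 and Tars2 with the low values at their outer ends (3.61 and 4.88). With the promoter table's starts the difference over all synthetase genes was 1.00, and it was not taken there without the 12 genes.

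Other genes of tRNA charging and use carried the mark as well, 49 of 51 in 7 lists, against the 48.4% of all genes given above. All 3 scaffold genes of the multisynthetase complex were marked, from Eef1e1 (19.6 ± 0.0656) to Aimp2 (12.3 ± 0.730). So were all 6 synthetase-like and proofreading genes, from Tarsl2, a threonine enzyme beside Tars and Tars2 (16.8 ± 0.174), to Aarsd1, an editing protein for mischarged alanine tRNA (11.4 ± 0.980). The 4 genes for indirect charging and formylation in mitochondria ran from Qrsl1 (18.4 ± 2.25) to Gatb (8.66 ± 0.899), which code for subunits of 1 amidotransferase that makes glutaminyl-tRNA. The 6 genes that place selenocysteine on tRNA or read it ran from Pstk, the kinase that acts on seryl-tRNA (16.4 ± 1.25), to Secisbp2 (10.7 ± 0.137). The 6 genes listed for the delivery of charged tRNA to ribosomes, carriers and their helper factors alike, ran from Eef1g (15.8 ± 0.961) to the mitochondrial factor Tsfm (10.3 ± 0.965).

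Of the 15 genes that mature the ends of tRNA 13 were marked, from Trnt1, which adds the CCA tail (19.5 ± 3.24), to Pop5, a subunit of RNase P (9.05 ± 3.99). Rpp40 and Rpp25, RNase P subunits as well, were not marked. The promoter table's start of Rpp40 lies 5218 bp inside its span, where the values were 13.7 and 12.9. All 11 genes of the response to uncharged tRNA were marked, from Asns, the asparagine synthetase that is a known ATF4 target, to Ddit3. Asns had 28.1 and 17.4 (22.7 ± 7.56) and Ddit3, which codes for CHOP, 8.00 and 8.70 (8.35 ± 0.492). The median over the 49 marked genes was 13.7, the same as over the synthetase genes.

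The label of the cells was set against markers. Of 9 erythroid genes 8 were marked, with a median value of 16.5, against 48.4% of all genes marked. Of the 8, 5 lay above the median of marked genes, among them Klf1 (20.7 and 21.3) and Alas2 (20.9 and 15.01). The other 3 lay below the lower quartile in both replicates, Epor with 8.27 and 10.4, Nfe2 with 4.40 and 7.25 and Slc4a1 with 3.97 and 4.51. Within the span of Nfe2 or 1000 bp of it, however, peaks reached 16.0 and 14.3, so its low values belong to the outer end. The spans of Epor and Slc4a1 held no higher peak. Gata1 was not marked at the end of its span, but the promoter table's start 8753 bp inside had 21.1 and 15.02. The marker genes of T cells (4), B cells (4), myeloid cells (5), liver (2) and neurons (3) were marked in 0 of 18 cases, although 7 of the 18 had a peak in both replicates somewhere within their span or 1000 bp of it, Cd4 (10.3 and 16.9) and Cd79a (4.95 and 16.6) among them.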

How the data were processed

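The authors deposited peak sets on mm10 for each replicate, for pooled reads and for replicated peaks, and an older set on mm9. Each deposited peak has a signal value (the enrichment value, scale not stated) and −log10 p and q values. Aligner, peak caller and threshold are not given in the sources used here, and fragments of 150 to 350 bp were selected per the labels. Analysis was limited to chromosomes 1 to 19, X and Y, with 1-based positions. Gene spans came from RefSeq GRCm38, with strand from GENCODE M1 by symbol (18392 genes) or synonym (2184), and 1311 genes without strand were left out. Exons and UTRs were not annotated. Overlap needed at least 1 bp. The plan named every synthetase gene, and of each related list the marked genes with the highest and lowest mean and all unmarked ones. One synthetase gene, which the counts and medians include, and some matched sequences are not reported here. Genes, lists and motifs were chosen with earlier results of these data known. The alternatives were windows of 500 and 2000 bp, a −log10 q of at least 2 or 5, gaps of 0 and 3000 bp, covering peaks, other peak sets, each replicate left out and, chosen after seeing the data, the promoter table's starts. Scripts (Python 3.11.15, pandas 2.3.3, numpy 2.4.6) were tested on simulated data.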

Additional observations from a re-analysis of the deposited data

How the results depend on the processing

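The count of marked synthetase genes was 37 (20 cytosolic, 17 mitochondrial) with a window of 2000 bp, a −log10 q of at least 2, the pooled, replicated and mm9 sets and with either replicate left out. Of all genes, 50.1% were marked with that window, 48.2% with that q, 49.3% in the pooled set and 48.8% in the replicated set. The share was 49.3% without replicate 1 and 48.7% without replicate 2, and none is given for mm9. The synthetase count was 35 (19 and 16) with a window of 500 bp, against 47.0% of all genes. It was 36 with a −log10 q of at least 5, where Aars2 was lost, against 47.5% of all genes. When peaks had to cover the 5′ end it fell to 15 (8 and 7), as that rule is stricter by construction. The same rule kept 4227 of all genes (20.5%) and 24 of the 51 related genes. With the promoter table's starts 27 genes (13 and 14) were marked, all that the table holds, against 50.7% of all genes in it. The difference in median enrichment value between cytosolic and mitochondrial genes, 1.42, ran from 0.365 to 1.08 with a replicate left out. It was 2.93 without the genes that share a peak and 18.6 on the −log10 p scale, another unit. The cause of the first 2 shifts was not tested. The value of 2.93 was taken at the ends of the gene spans, with Aars2 and Tars2 at their low outer-end values. With the promoter table's starts, and the span's end for genes not in the table, the difference over all 37 genes was 1.00. The difference in median domain width, 377 bp, ran from 130.5 to 673.5 bp with a replicate left out, was 59 bp with gaps of 0 bp, and reversed to -312 bp with gaps of up to 3000 bp, for which the cause was not tested. No paired analysis was possible because there is only 1 group. Depth is unknown, so the precision of a single peak could not be given. Of the 6 genes with a start more than 500 bp inside the span, 4 had lower values at the span's end and 2 had the same.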

Other observations

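In the older peak set on mm9, the 5′ ends of GENCODE's protein-coding transcripts were used and the authors' signal has another scale. There Qars had the highest value of the synthetase genes (5.91), followed by Farsb (4.86), Kars (4.54) and Wars (4.52). Cars2 (1.87), Aars2 (2.02), Pars2 (2.05) and Mars1 (2.11) had the lowest values. Gars, the highest gene on mm10, had 4.23 and Fars2 3.36. Mars1 and Cars2 thus stood near the low end of both builds' sets. Qars had 4 such 5′ ends and Farsb, Kars and Wars had 3 each, against 1 for Gars and Fars2. Vars, with 6, had a value of 3.54. An effect of the number of ends on the order was not tested. The older set's derivation is not stated by the authors.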
